A study of Mus musculus with 4 samples.

Results

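The immunoglobulin gene segments are the genes whose annotated biotype begins with IG_, and they numbered 429 of the 54532 genes in the deposited expression table. Earlier results of these data were known, but no measured value entered the rule. The members were taken by this annotation alone. Of these, 233 lie in the heavy chain locus Igh on chromosome 12, 184 lie on chromosome 6 and are counted with the kappa locus Igk, and 12 lie in the lambda locus Igl on chromosome 16. Gm17472 and Gm20730 on chromosome 6 lie outside Igk, and neither had a read. By type there were 222 V segments, 19 D segments, 14 J segments, 13 constant genes and 161 pseudogenes.

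The samples were wild-type (WT) mouse naïve CD4+ T cells from spleen. They were cultured for 3 days under conditions that polarise them towards T follicular helper (Tfh) cells, which help B cells in germinal centres. The control group received no treatment and the other group received dimethyl fumarate (DMF), a drug known as an activator of the transcription factor Nrf2. Each group holds 2 libraries of total RNA, and the comparison asked how RNA differed in cells cultured with DMF. The labels give no age, strain or dose for these libraries and do not say whether the replicates came from separate animals or cultures. The p-values rest on the spread between these libraries alone, and it may be technical.

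An immunoglobulin gene is assembled in developing B cells by joining 1 V segment to 1 J segment, with a D segment between them in the heavy chain. The joined exon is then spliced to a constant gene, which sets the isotype. Ighm (IgM) and Ighd (IgD) are the constant genes of naive B cells, and the other heavy chain constant genes are used after class switching. Assembled immunoglobulin genes are expressed by B cells and plasma cells, and unjoined constant genes can also give germline transcripts.

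J segments are the shortest coding members after the D segments, and they encode the end of the variable domain. The 8 heavy and kappa J segments with more than 1 read are shown because control replicate 2 had no read of any of them. They are the GENCODE M21 transcripts (GRCm38), 5′ to 3′ on the coding strand. Capitals mark the match to TGGGG (heavy chain) or TTCGG (light chains) followed by any 4 bases, then GG and 1 more base. These are the codons of the Trp-Gly-X-Gly and Phe-Gly-X-Gly motifs, and only the coding strand was searched.
Ighj2: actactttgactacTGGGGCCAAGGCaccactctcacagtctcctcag
Ighj3: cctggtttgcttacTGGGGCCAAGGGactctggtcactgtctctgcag
Ighj4: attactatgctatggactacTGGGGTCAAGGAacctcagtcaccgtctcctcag
Igkj1: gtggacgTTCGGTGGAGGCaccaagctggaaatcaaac
Igkj2: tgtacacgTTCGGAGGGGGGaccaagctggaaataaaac
Igkj3: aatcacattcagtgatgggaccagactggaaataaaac
Igkj4: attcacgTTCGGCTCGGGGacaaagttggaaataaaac
Igkj5: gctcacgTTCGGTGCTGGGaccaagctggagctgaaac
The match was found in 12 of the 14 J segments and in 0 of the last 38 bases of the 222 V segments. Igkj3, shown without capitals, holds neither form in these letters. These segments are 38 to 54 bases long, Ighj4 lying at chr12:113428514-113428567 on the minus strand and Igkj4 at chr6:70723548-70723585 on the plus strand.

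V segments within a family can be close copies, so reads may be credited to a neighbour. In 3 pairs a member that the results turn on is set beside its nearest relative, with 120 bases of each transcript and the differing bases in capitals.
Ighv1-52: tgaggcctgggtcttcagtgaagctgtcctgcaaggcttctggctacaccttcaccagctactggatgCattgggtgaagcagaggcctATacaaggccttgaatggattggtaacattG
Ighv1-61: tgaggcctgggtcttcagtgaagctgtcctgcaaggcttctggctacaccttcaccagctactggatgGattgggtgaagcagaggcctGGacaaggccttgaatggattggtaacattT
Igkv8-19: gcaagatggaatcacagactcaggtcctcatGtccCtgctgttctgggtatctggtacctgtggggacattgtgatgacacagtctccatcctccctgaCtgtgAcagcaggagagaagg
Igkv8-28: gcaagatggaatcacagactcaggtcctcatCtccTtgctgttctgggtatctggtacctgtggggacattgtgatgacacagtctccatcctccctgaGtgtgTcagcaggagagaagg
Igkv1-110: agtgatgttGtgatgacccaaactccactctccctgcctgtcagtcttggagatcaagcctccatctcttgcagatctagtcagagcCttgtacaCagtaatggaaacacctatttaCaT
Igkv1-117: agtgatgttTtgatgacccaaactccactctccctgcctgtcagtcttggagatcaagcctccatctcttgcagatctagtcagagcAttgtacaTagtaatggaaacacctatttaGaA
Over their whole aligned length, Ighv1-52 (chr12:115145487-115145919, minus strand) differed from Ighv1-61 at 5 of 351 positions. Igkv8-19 (chr6:70340876-70341453, minus strand) differed from Igkv8-28 at 9 of 370, and Igkv1-110 (chr6:68270485-68271267, plus strand) from Igkv1-117 at 10 of 401. Counts of single V segments are uncertain to the extent that the counting split such reads.

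The 4 libraries held 15900118 to 17516953 reads. Control replicate 2 stood apart from the others: it had the fewest reads, and 20075 genes with a read against 21658 to 22363 elsewhere. T cell markers (Cd3e, Cd3d, Cd3g, Cd4, Cd28, Cd5, Lck and Trac) were present throughout, with a summed level of 1572 to 1627 FPKM in 3 libraries and 2390 FPKM in control replicate 2. FPKM is the deposited unit, fragments scaled to gene length and library size. The other values are reads recovered from it, or reads scaled to the library's own total (RPM). On the RPM scale the median tested gene lay 0.15 log2 units higher in DMF. Because of control replicate 2, values are given library by library, in the order control replicate 1, control replicate 2, DMF replicate 1 and DMF replicate 2.

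Immunoglobulin RNA was detected in every library, and its total did not separate the groups. The 429 segments summed to 3645, 4539, 3904 and 3916 reads. These were 212, 285, 228 and 224 RPM, with 95% Wilson intervals, which cover counting error only, of 205 to 219, 277 to 294, 221 to 235 and 217 to 231. Both DMF libraries lay between the controls. The means were 249 ± 51.8 RPM (SD, n = 2) in controls and 226 ± 3.03 (SD, n = 2) in DMF, a log2 difference of -0.12 ± 0.21 (SE). An exact two-sided permutation test gave p = 1.0, and with 2 against 2 libraries such a test cannot go below 0.33. In these bulk samples, fewer cells of a type and less RNA per cell cannot be told apart.

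Of the 429 members, 249 had no read in any library, 180 had at least 1 read and 56 had a read in all 4. The constant genes carried most of the signal. Their reads numbered 2971, 4028, 3124 and 3140, against 627, 509, 743 and 728 for all V segments. V segments thus held 17.2%, 11.2%, 19.0% and 18.6% of the immunoglobulin reads, lowest in control replicate 2. V segments reached 36.5, 32.0, 43.4 and 41.6 RPM, so both DMF libraries were above both controls (log2 difference 0.31 ± 0.10 SE, exact permutation p = 0.33, the smallest possible). The difference was 0.15 when scaled by the library size that the FPKM imply and 0.13 by trimmed means.

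**Figure D1:**
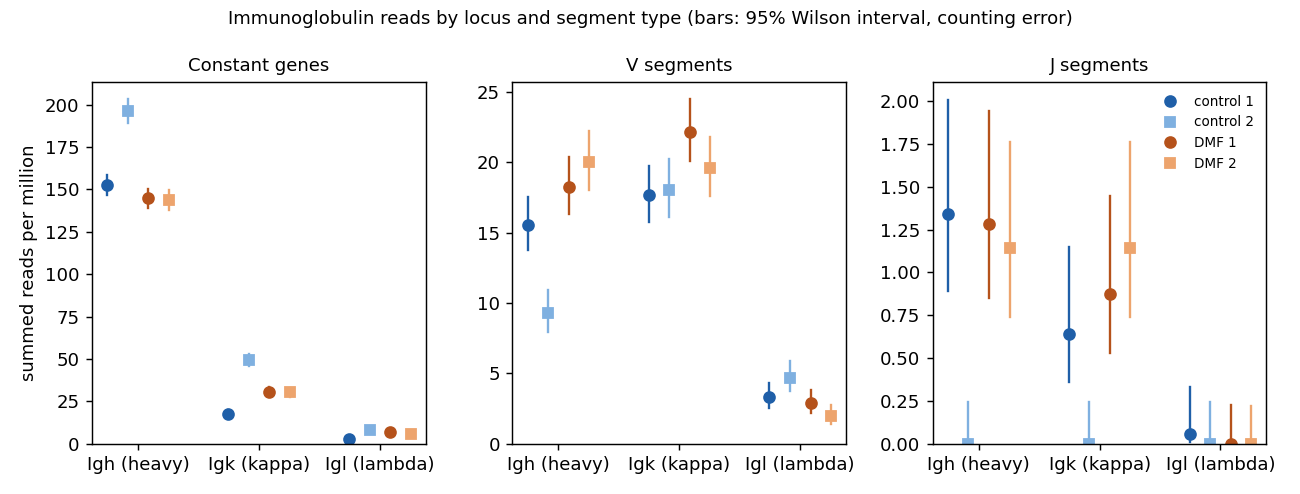
Summed reads scaled to the library total (RPM, vertical axis, different range in each panel) of constant genes, V segments and J segments of the heavy (Igh), kappa (Igk) and lambda (Igl) loci in each of the 4 libraries, with 95% Wilson intervals for counting error. Control replicate 2 is highest for heavy and kappa constant genes and lowest for heavy V segments (9.31 RPM against 15.5 to 20.0), and it has no J read.

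Among heavy chain constant genes, the IgM gene Ighm (chr12:113418558-113422730, minus strand) was the most abundant, and both DMF libraries lay below both controls. Its level was 71.6, 107, 62.7 and 62.4 FPKM, from 2392, 2824, 2163 and 2198 reads. The DMF libraries were nearly equal while the controls differed by more than the gap from control replicate 1 to DMF. On the log2(FPKM + 1) scale Ighm was 0.48 ± 0.27 (SE) lower in DMF, and limma's adjusted p was 0.561. The size rested on which control was used. The difference was -0.77 with control replicate 1 left out and -0.19 when control replicate 2 was omitted instead. The lone control of such a fit has no spread of its own, so only the effect size is given. After quantile normalization the difference was -0.15. Ighm took 65.6% and 62.2% of all immunoglobulin reads in controls and 55.4% and 56.1% in DMF.

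The IgD gene Ighd (chr12:113406604-113416324, minus strand), which naive B cells make together with IgM by alternative splicing of 1 transcript, differed in the other direction. Its level was 0.683, 1.32, 3.34 and 3.95 FPKM, from 23, 35, 116 and 140 reads. Both DMF libraries were above both controls, with a mean of 3.64 ± 0.432 FPKM (SD, n = 2) against 1.00 ± 0.452. The log2 difference was 1.23 ± 0.26 (SE), with an adjusted p of 0.310 by limma, so it did not pass the threshold of 0.05. Leaving out control replicate 2 gave 1.46. Without control replicate 1 it was 1.00. Without DMF replicate 1 or DMF replicate 2 it was 1.32 or 1.13. These fits take the spread from the remaining pair, so only their effect sizes are given.

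Within the heavy chain constant reads the share of Ighd was larger and that of Ighm smaller in both DMF libraries, as a description without a test. Ighd made up 0.879% (95% Wilson interval 0.586 to 1.31), 1.12% (0.808 to 1.56), 4.68% (3.92 to 5.58) and 5.56% (4.73 to 6.53). Ighm made up 91.4%, 90.6%, 87.3% and 87.4%. The intervals of the controls did not overlap those of DMF for either gene.

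The switched isotypes were rare, and their order between groups differed from gene to gene. Ighg2b (IgG2b) had 119, 143, 108 and 96 reads, or 2.51, 3.83, 2.20 and 1.92 FPKM, lower in both DMF libraries (log2 difference -0.43 ± 0.25 SE, limma adjusted p = 0.561). For Ighg2b it was -0.66 with control replicate 1 left out and -0.20 when control replicate 2 was omitted instead. Ighg1 (IgG1) had 58, 59, 81 and 75 reads, and its FPKM of 1.26, 1.63, 1.71 and 1.55 overlapped between groups. Ighg3 (IgG3) had 17, 41, 6 and 1 reads and Ighg2c (IgG2c) 7, 5, 2 and 2, both lower in DMF but below the mean FPKM of 1 needed for the test. Igha (IgA) had 2, 11, 3 and 4 reads. Ighe (IgE) had 0 reads in every library, and a count of 0 is compatible with up to 3 reads.

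The kappa constant gene Igkc (chr6:70726435-70726966, plus strand) differed widely between the controls, and no direction could be assigned to it. Its level was 32.1, 106, 53.7 and 53.3 FPKM, from 303, 785, 523 and 529 reads, with both DMF libraries between the controls. The limma log2 difference was -0.13 ± 0.60 (SE), adjusted p = 0.919. It changed sign to 0.21 after quantile normalization, to 0.04 by voom on recovered reads and to 0.72 without control replicate 2. Per length, Ighm stood at 2.23 times Igkc in control replicate 1, and at 1.01, 1.17 and 1.17 times in the other libraries. Igkc overlaps the lincRNA Gm30211 on the same strand, which had 1, 4, 7 and 12 reads.

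Of the lambda constant genes, Iglc1 was lower in both DMF libraries, and Iglc2 overlapped between groups in FPKM. Iglc1 (chr16:19061618-19062071, minus strand) had 25, 57, 19 and 14 reads, or 3.11, 9.01, 2.29 and 1.65 FPKM. Iglc2 (chr16:19198396-19200351, minus strand) had 20, 58, 89 and 72 reads, or 1.84, 6.80, 7.95 and 6.30 FPKM. Iglc1 was lower by 1.12 ± 0.48 (SE) on the log2 scale (limma adjusted p = 0.549), while the Iglc2 difference was 0.78 ± 0.53 (adjusted p = 0.564). In RPM, Iglc2 stood at 1.16, 3.65, 5.19 and 4.11, higher in DMF. Without control replicate 1 the differences were -1.76 for Iglc1 and 0.05 for Iglc2. Without control replicate 2 they were -0.48 and 1.51.

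Iglc1 made up 50.0% (95% Wilson interval 36.6 to 63.4) and 45.6% (37.1 to 54.3) of lambda constant reads in controls. In DMF it made up 15.6% (10.2 to 23.0) and 14.7% (8.99 to 23.2). Iglc2 made up 40.0%, 46.4%, 73.0% and 75.8%. Iglc3 had 5, 10, 14 and 9 reads and Iglc4 none. Iglc2 and Iglc3 differ at 21 of 452 positions, so reads could be split between them, whereas the nearest relative of Iglc1 is Iglc4, at 42 of 314. Iglc1 and Iglc3 also overlap the antisense gene 2010309G21Rik, which had 2, 0, 0 and 5 reads.

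**Figure D2:**
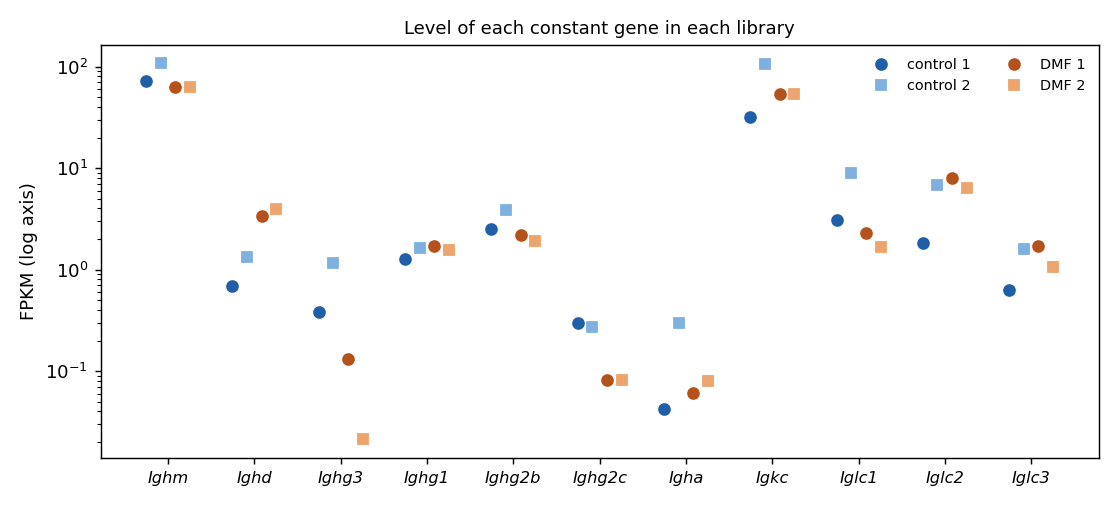
FPKM on a log axis of the 11 constant genes with a read, in each of the 4 libraries, without error bars since each point is 1 library. Ighd lies at 0.683 and 1.32 FPKM in controls and at 3.34 and 3.95 in DMF, while Igkc in DMF lies between the controls. Ighe and Iglc4 had no read and are not drawn.

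Of the 3 lambda V segments, Iglv1 was lower in both DMF libraries. Iglv1, which is joined to J segments of Iglc3 and Iglc1 in its cluster, had 43, 59, 28 and 16 reads. That was 75.4%, 79.7%, 56.0% and 47.1% of lambda V reads. Iglv1 was 1.22 ± 0.36 (SE) lower in DMF on the log2 scale, with a limma adjusted p of 0.466. Iglv2 had 7, 7, 3 and 9 reads and Iglv3 7, 8, 19 and 9. The Iglv1 count is uncertain since Iglv2 differs at 12 of 366 positions.

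Heavy chain V segments summed to 267, 148, 313 and 351 reads, and kappa V segments to 303, 287, 380 and 343. The heavy V sum was 15.5, 9.31, 18.3 and 20.0 RPM (log2 difference 0.67 ± 0.38 SE), and the kappa V sum 17.6, 18.1, 22.2 and 19.6 RPM (0.22 ± 0.09). In RPM both DMF libraries were above both controls in both loci, with the exact permutation p at its minimum of 0.33. The heavy V difference was 1.04 with control replicate 1 left out and 0.30 when control replicate 2 was omitted instead. The kappa V difference held in RPM only: summed kappa V FPKM were 46.3, 55.9, 56.5 and 50.4, which overlapped, and the difference was 0.057 with the library size that the FPKM imply, 0.038 by trimmed means and 0.036 without the most read member. Heavy constant reads were lower in DMF, at 152, 196, 145 and 144 RPM (-0.26 ± 0.18), by a difference of -0.44 with control replicate 1 left out and -0.081 when control replicate 2 was omitted instead.

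Relative to the constant genes and per length, V segments were lowest in control replicate 2 in the heavy and kappa loci. Summed V FPKM over summed constant FPKM was 0.532, 0.252, 0.667 and 0.741 in Igh, and 1.44, 0.528, 1.05 and 0.947 in Igk. In Igl it was 1.49, 0.788, 0.594 and 0.529. The heavy ratio was above both controls in DMF and the lambda ratio below both, while the kappa ratio overlapped.

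Among the most read single V segments, some were higher and others lower in both DMF libraries. Igkv10-96 (chr6:68631963-68632442, minus strand), the V segment with the most reads, had 10, 21, 66 and 56 reads, or 0.58, 1.32, 3.85 and 3.20 RPM. Ighv1-52 had 3, 1, 37 and 49 reads, Igkv14-111 had 8, 7, 45 and 32, and Igkv3-7 had 4, 6, 35 and 34. Each of these 4 was higher in both DMF libraries. The ranking used reads summed over all libraries, and DMF held more V reads (743 and 728 against 627 and 509). It thus favoured segments that are high in DMF. Ighv1-52, Igkv3-7 and Igkv14-111 were also among the smallest p-values in this direction.

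The opposite order was seen for other segments. Igkv1-110 and Ighv3-6 were among the 10 V segments with the most reads. Igkv17-127 and Igkv8-19 were named for a small p in this direction, so their order was fixed by that choice. Igkv1-110 had 25, 33, 4 and 1 reads, Ighv3-6 had 32, 10, 3 and 7, Igkv17-127 had 16, 18, 8 and 3, and Igkv8-19 had 15, 9, 0 and 1. Each was lower in both DMF libraries. Igkv6-15, with 16, 10, 14 and 11 reads, was among the 10 most abundant V segments and overlapped between groups. Ighv1-76, with 14, 4, 36 and 19 reads, and Ighv1-18, with 11, 4, 14 and 27, were instead higher in both DMF libraries.

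**Figure D3:**
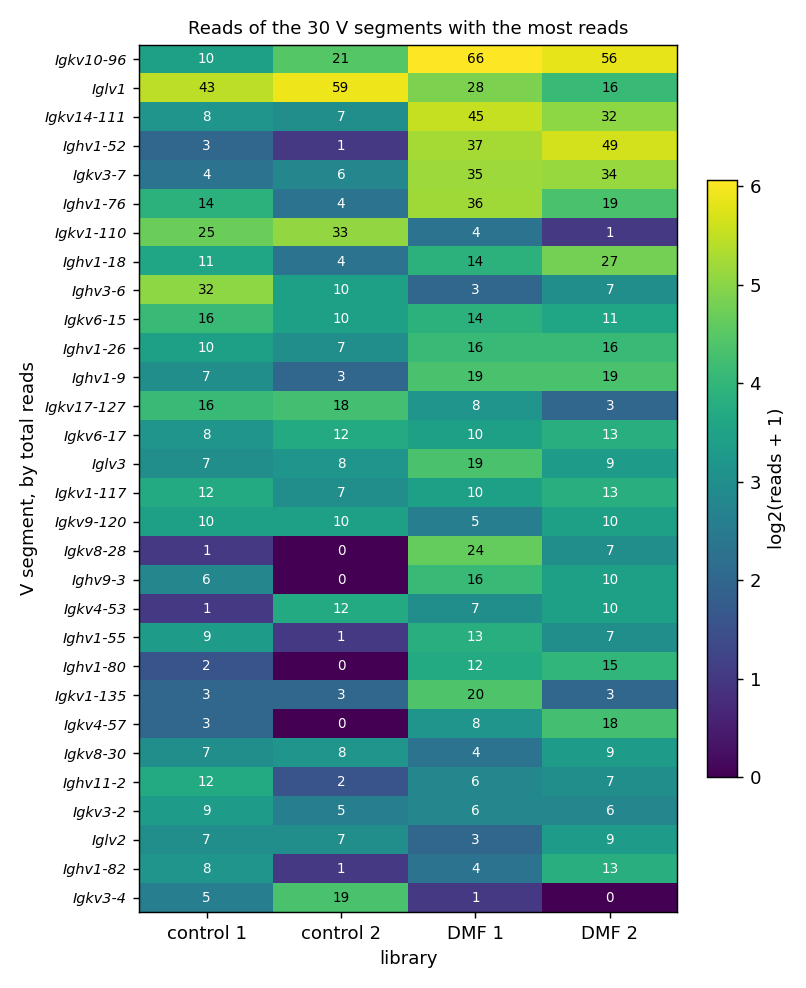
Reads of the 30 V segments with the most reads (rows) in each library (columns), with the read number printed and the colour giving log2(reads + 1). Igkv10-96, Igkv14-111, Ighv1-52 and Igkv3-7 are high in both DMF columns, and Igkv1-110 is high in both control columns.

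In the fit across all genes none of these differences passed the threshold. For Ighv1-52 the level was 0.482, 0.205, 5.76 and 7.48 FPKM, with a limma log2 difference of 2.5 ± 0.24 (SE) and an adjusted p of 0.164. Its near copy Ighv1-61 had 0, 2, 4 and 6 reads. Igkv3-7 stood at 0.629, 1.20, 5.33 and 5.07 FPKM (1.71 ± 0.24, adjusted p = 0.201), and Igkv14-111 at 1.23, 1.37, 6.68 and 4.66 FPKM (1.52 ± 0.24, adjusted p = 0.222). These are differences on the log2(FPKM + 1) scale, which compresses the change of genes of low level. Ighv1-52 and Igkv3-7 reached the mean FPKM of 1 needed for the test only through DMF, so their tests support nothing.

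Igkv1-110 stood at 3.52, 5.91, 0.545 and 0.134 FPKM, a log2 difference of -2.08 ± 0.32 (SE) with an adjusted p of 0.222. Its near copy Igkv1-117, printed beside it, had 12, 7, 10 and 13 reads, which overlapped between groups. Igkv8-19 stood at 2.29, 1.75, 0 and 0.145 FPKM (-1.49 ± 0.25, adjusted p = 0.243). Its near copy Igkv8-28 ran the other way, with 1, 0, 24 and 7 reads. Each count of this pair is uncertain, since reads could be split between the copies. Igkv1-110 and Igkv8-19 reached the mean FPKM of 1 needed for the test only through the controls, so their tests support nothing.

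Among the 5 smallest p-values in each direction were also Ighv8-8, lower in DMF with 9, 9, 3 and 4 reads, and Ighv1-80, higher in DMF with 2, 0, 12 and 15 reads (log2 difference 1.42 ± 0.27 SE, limma adjusted p = 0.277). Ighv8-8 reached the mean FPKM needed for the test only through the controls and Ighv1-80 only through DMF, so neither supports anything.

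Across the loci, 81 V segments had at least 10 reads in total. In RPM, 25 of them (30.9%) had both DMF libraries above both controls, 25 (30.9%) had both below and 31 overlapped. Over all 18809 genes with 10 or more reads the corresponding shares were 32.9% higher and 18.1% lower. The share above was thus near the background and the share below was larger than it. Without control replicate 2 the counts were 31 higher and 35 lower (38.3% and 43.2%), against 44.6% and 33.8% of all genes.

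By family, the large Ighv1 family took 52.1%, 51.4%, 68.1% and 71.2% of heavy V reads. The Ighv3 family took 15.7%, 8.78%, 1.92% and 1.99%. In the kappa locus the Igkv10 family took 3.63%, 8.36%, 18.2% and 16.6%, and the Igkv14 family 5.94%, 3.48%, 13.4% and 9.91%. The 95% Wilson intervals of controls and DMF did not overlap for Ighv1, Ighv3 and Igkv10, and they did for Igkv14 (7.18 to 13.5 in DMF replicate 2 and 3.79 to 9.19 in control replicate 1). These 4 were chosen after their values were seen. Of the 27 heavy and kappa families with at least 10 reads in total, the intervals did not overlap in 2 that were higher and 1 that was lower in DMF, and they overlapped in 24. The Igkv6 family, at 12.5%, 11.1%, 10.5% and 11.1%, and the Igkv3 family, at 8.91%, 10.5%, 11.8% and 14%, were among those 24.

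The inverse Simpson index of V usage was lower in both DMF libraries, while the number of kappa V segments with a read was not. Of 115 heavy V segments, 52, 47, 48 and 47 had a read. Thinned to 148 reads, the depth of the shallowest library, the expected numbers were 44.3, 47.0, 40.5 and 39.2. Of 104 kappa V segments, 47, 47, 50 and 45 had a read, and thinned to 287 reads the expected numbers of 46.6, 47.0, 47.3 and 43.6 overlapped between groups. The inverse Simpson index, the number of equally used segments that would give the same evenness, was 25.8, 31.3, 20.2 and 20.7 in Igh and 28.6, 23.2, 14.7 and 16.2 in Igk. The most read heavy segment was Ighv3-6 in both controls (12% and 6.76%) and Ighv1-52 in both DMF libraries (11.8% and 14%). In Igk it was Igkv1-110 in controls (8.25% and 11.5%) and Igkv10-96 in DMF (17.4% and 16.3%).

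Libraries of 1 group shared more V usage with each other than with the other group. Shared usage was taken as the sum over segments of the smaller of both libraries' shares. In Igh it was 60.2% between the controls, 65.1% between the DMF libraries and 36.2% to 44.8% across groups. In Igk it was 65.7%, 68.7% and 38% to 43.1%. These are descriptions with 148 to 380 V reads a library, and fewer reads lower the share that can be held in common.

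**Figure D4:**
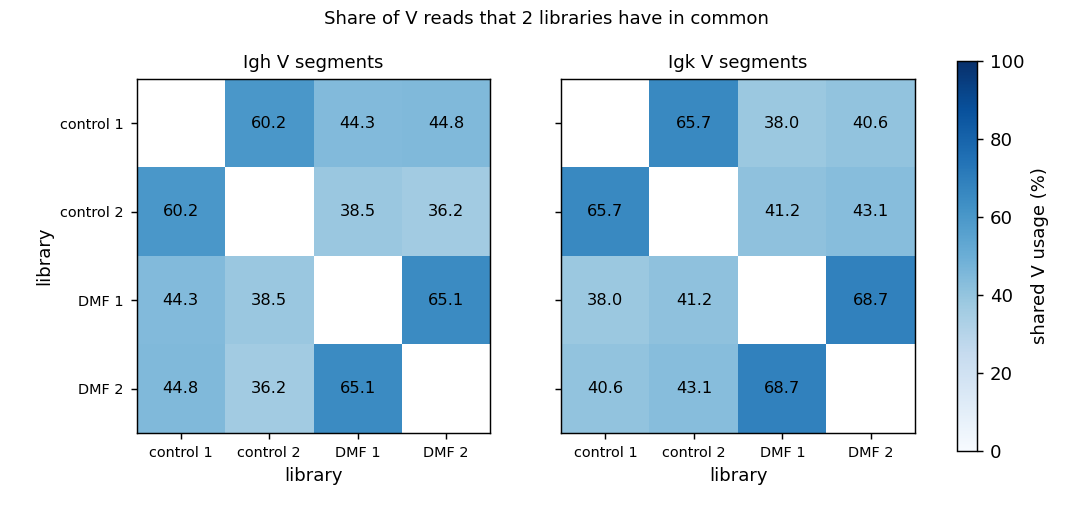
Shared V usage in percent between each pair of libraries, for heavy (left) and kappa (right) V segments, with the value printed and darker blue for more. The control pair (60.2% and 65.7%) and the DMF pair (65.1% and 68.7%) exceed every pair that crosses the groups (at most 44.8% and 43.1%).

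J segments gave few reads, and none in control replicate 2. All 14 together had 35, 0, 37 and 40 reads. Heavy J reads were 23, 0, 22 and 20, kappa J reads 11, 0, 15 and 20, and lambda J reads 1, 0, 0 and 0. A count of 0 in control replicate 2 is compatible with up to 3 reads. J segments of the T cell receptor, the same kind of short gene, were also low in that library, at 72.6, 18.0, 60.1 and 69.3 RPM, while its T cell receptor constant genes were high, at 1038, 1952, 971 and 908.

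Leaving that library aside, 1 control remained, so the few J reads of the remaining 3 libraries are a description and show no group difference. Ighj4 had 2 reads in control replicate 1 and 14 and 9 in DMF, Ighj3 had 11, 8 and 10, and Ighj2 had 9, 0 and 1. Igkj2 had 7, 3 and 1 and Igkj5 had 4, 1 and 6. Igkj4 had 0 reads in both controls and 6 and 8 in DMF. It passed the filter on mean FPKM only through DMF, so its limma adjusted p of 0.128, the smallest of all members, supports nothing. Control replicate 2 had no J read at all, so its 0 says nothing about this segment. A fitted fold against a group at 0 depends on the pseudocount and is left out. Igkj1, with 0, 0, 4 and 1 reads, and Igkj3, with 0, 0, 1 and 4, had no control read either and passed the filter through DMF alone. None of the J segments passed the test. Igkj2, Igkj4 and Igkj5 overlap the lincRNA Gm30211 on the same strand. In the order of the libraries it had 1, 4, 7 and 12 reads, similar in size to the counts of these segments. Whether reads were split between them was not tested.

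D segments and pseudogenes were almost silent. Of 19 D segments, only Ighd4-1, whose 11 bases are ctaactgggac, and Ighd1-1 had reads: 3, 1, 0 and 2 for the first and 0, 1, 0 and 0 for the second. The third named D segment, Ighd3-2, had none. Of 161 pseudogenes, 5 had a read and together they held 15 reads. Ighv1-2 had 7, 0, 0 and 0, Igkv4-56 had 0, 0, 0 and 3 and Ighv1-79 had 0, 0, 0 and 2.

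In the limma fit of all 12166 genes with a mean of at least 1 FPKM, 47 immunoglobulin members entered: 30 V, 1 D, 8 J and 8 constant genes. Members that passed this filter only through the group where they are high had to differ, so their counts describe and support nothing. None of the 47 passed an adjusted p of 0.05, and 0% of all tested genes did. At an unadjusted p under 0.05, 13 members were higher in DMF and 7 lower, where 3.14% and 6.31% of all genes were. In FPKM, 17 members had both DMF libraries above both controls, 12 had both below and 18 overlapped, against 26.4% and 26.8% of all genes above and below. The median log2 difference was 0.20 for the members and -0.01 for all genes. Voom on recovered reads also passed none, with 12 of the 47 members and 9.76% of all tested genes at an unadjusted p under 0.05.

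The calls depended on which libraries were used. With control replicate 1 left out 14 members passed as higher and 10 as lower, with control replicate 2 left out 7 and 0. In these fits 7420 and 1007 of all genes passed, since the lone control is assumed to vary like the close DMF pair.

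Genes that work with immunoglobulin were then followed, starting with markers of B cells. The list of 12 B cell markers, among them Ms4a1, Cd79a, Cd79b, Pax5 and Cd22, summed to 840, 615, 1655 and 1752 reads, or 48.9, 38.7, 96.6 and 100.02 RPM, higher in both DMF libraries. None of the 12 was at 0 in all libraries. Ebf1, with 315, 181, 227 and 292 reads, overlapped between groups and supplied more of the sum than any other marker in both controls. Of the 7 tested, 0 passed, 6 had both DMF libraries above both controls in FPKM and 0 had both below, with a median log2 difference of 0.77. Of all tested genes 26.4% lay above and 26.8% below in this sense, and the counts of the lists that follow stand beside the same shares. In this list and those that follow, Pax5, Blk, Btk, Syk, Tcf4 and Fcrl5 had control means below 1 FPKM. They passed the filter only through DMF, so their place in the counts and medians supports nothing. Cd79b, a signalling chain of the B cell receptor, stood at 1.38, 3.56, 4.81 and 5.61 FPKM (0.91 ± 0.37 SE, limma adjusted p = 0.543). Ms4a1, which encodes CD20, had 25, 12, 113 and 135 reads.

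The number of immunoglobulin reads for each B cell marker read differed between libraries. There were 4.34, 7.38, 2.36 and 2.24 immunoglobulin reads per B cell marker read, and 2.85, 4.59, 1.31 and 1.25 Ighm reads. Both ratios were lower in both DMF libraries. Before any such scaling, Ighd and the V segment sum were higher in both DMF libraries. The V segment sum, at 36.5, 32.0, 43.4 and 41.6 RPM, rose less than the B cell markers, at 48.9, 38.7, 96.6 and 100.02 RPM. Ighd rose more than the markers, with 23, 35, 116 and 140 reads beside 840, 615, 1655 and 1752 marker reads. The part of B cell content in the differences among immunoglobulin genes was not tested.

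**Figure D5:**
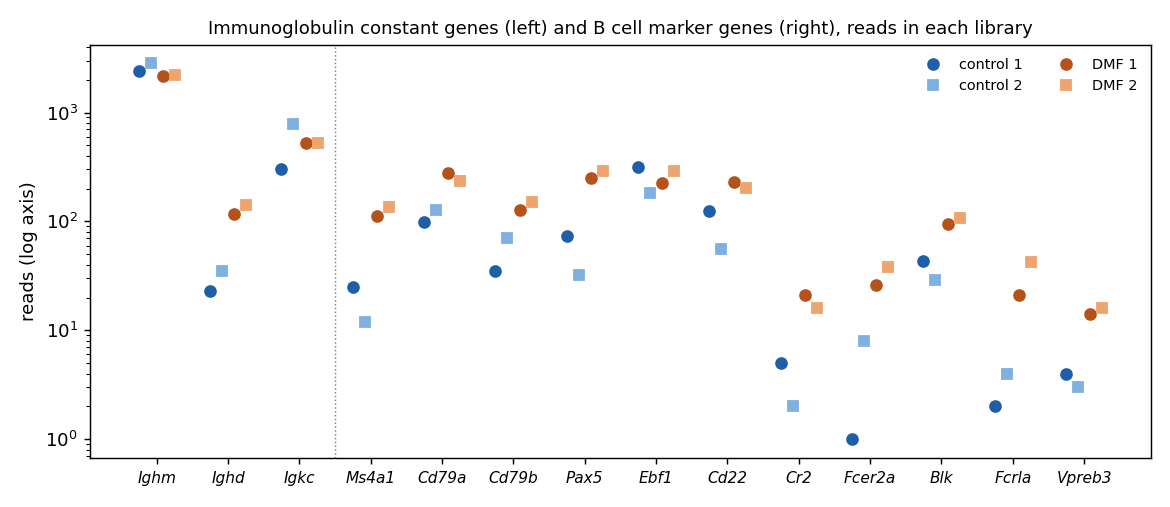
Reads (log axis) of 3 constant genes, left of the dotted line, and of 11 of the B cell markers, right of it, in each of the 4 libraries. Ighm has 2163 and 2198 reads in DMF against 2392 and 2824, while Ighd and the B cell markers other than Ebf1 have more reads in both DMF libraries (Ms4a1 at 113 and 135 against 25 and 12).

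Of 15 B cell receptor partners and signalling genes, 11 were tested, 0 passed, 8 were above and 1 below (26.4% and 26.8% of all genes), with a median log2 difference of 0.69. Cd79a, the signalling chain that carries IgM to the surface, stood at 3.83, 6.21, 10.3 and 8.71 FPKM (0.83 ± 0.27 SE, limma adjusted p = 0.490). The kinase genes Blk and Btk stood at 0.899, 0.772, 1.90 and 2.12 FPKM and at 0.537, 0.661, 1.65 and 1.51 FPKM.

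Of 16 transcription regulators of the immunoglobulin loci, 15 were tested, 0 passed, 8 were above and 3 below (26.4% and 26.8% of all genes), with a median of 0.46 that was 0.79 with control replicate 1 left out and 0.06 when control replicate 2 was omitted instead. Spib stood at 2.46, 2.90, 6.12 and 6.12 FPKM (0.95 ± 0.18 SE, limma adjusted p = 0.277). Pou2af1, the octamer coactivator of immunoglobulin promoters, stood at 50.8, 46.7, 87.5 and 86.7 FPKM (0.83 ± 0.19, adjusted p = 0.360), and activated T cells express it too. Pax5, a B cell identity factor, stood at 0.465, 0.259, 1.55 and 1.74 FPKM. Tcf3, which encodes E2A, was lower at 35.6, 40.6, 25.8 and 24.4 FPKM (-0.58 ± 0.18, adjusted p = 0.490).

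The class switch and hypermutation list had 11 of 12 measured genes tested, 0 passing, 7 above and 2 below (26.4% and 26.8% of all genes), with a median of 0.32 that was 0.20 without control replicate 2. Msh6, a mismatch repair gene used widely, stood at 24.5, 15.7, 32.6 and 30.5 FPKM. Of the 7 surrogate light chain and recombination genes, which act in precursor B cells, none reached the filter, and Rag2 and Vpreb2 had no read in any library.

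Of 10 antibody secretion genes, 8 were tested, 0 passed, 1 was above and 2 below (26.4% and 26.8% of all genes), with a median of 0.04 that was -0.07 without control replicate 2. Derl3, of endoplasmic reticulum quality control, was lower at 1.90, 2.67, 1.04 and 1.05 FPKM (-0.67 ± 0.23 SE, limma adjusted p = 0.511), and Xbp1, the secretory regulator, was lower at 22.6, 33.8, 17.3 and 19.3 FPKM. Jchain, which joins IgM and IgA polymers, had 30, 38, 27 and 9 reads. The plasma cell markers had 6 of 9 tested, 0 passing, 3 above and 2 below, and Tnfrsf17 was at 0 in all libraries. Sdc1, which encodes the plasma cell surface proteoglycan CD138, was higher in both DMF libraries at 1.96, 2.13, 3.28 and 2.91 FPKM (0.43 ± 0.19 SE, limma adjusted p = 0.553). Prdm1, a regulator of plasma cell differentiation that T cells also express, had 11, 2, 41 and 21 reads.

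Of 12 Fc receptor and transport genes, 4 were tested, 0 passed, 2 were above and 0 below (26.4% and 26.8% of all genes), with a median of 0.51 that was 0.19 with control replicate 1 left out and 0.75 when control replicate 2 was omitted instead. The Fc receptor-like genes Fcrl1 and Fcrl5 stood at 3.61, 5.08, 6.88 and 7.79 FPKM and at 0.730, 0.825, 1.68 and 1.91 FPKM.

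Markers of several other cells were lower in DMF, and no tested gene among them passed limma's adjusted threshold. CD8 T and NK markers summed to 428, 519, 106 and 101 reads, with all 3 tested genes below the controls (median log2 difference -1.43) and Klrb1c and Ncr1 at 0 in every library. Myeloid markers summed to 1170, 1955, 898 and 823 reads, with all 3 tested genes below. Cd8a and Klrd1, and Cd14 and Lyz2 of the myeloid list, had DMF means below 1 FPKM. They entered the test only through the controls, so their place below supports nothing. Cst3, which many cell types express, supplied 1045, 1803, 816 and 783 of these myeloid reads. Adgre1 and Csf1r, which mark macrophages and monocytes, had 14 reads or fewer in each library and overlapped between groups. Of 8 T cell markers tested, 5 were below and 0 above, where 26.8% of all genes were below and 26.4% above, and their median of -0.27 was -0.08 without control replicate 2. The plasmacytoid dendritic cell marker Siglech had 0, 0, 2 and 0 reads. Their part in the immunoglobulin values was not tested.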

How the data were processed

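RNA-seq of 4 libraries, 2 control and 2 DMF, was used. Per the file headers, the authors deposited FPKM values for each gene in 1 table that also holds biotypes, positions and gene lengths. How reads were aligned and counted is not given in the sources used here. Per the submitters' processing notes, the tools of the authors included edgeR, in a role not stated, and the genome build was mm8, whereas all 429 members have the coordinates of GENCODE M21 (GRCm38), which is used here. Sequences came from 427 of the 429 members with a transcript there.

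FPKM times gene length gave whole multiples of 1 step per library for 100% of values (within 0.01), so reads were recovered. They total 17171199, 15900118, 17134385 and 17516953, while the FPKM scaling set by the authors implies 17725674, 13929627, 18302380 and 18672223. Sums by locus and segment type were tested by exact two-sided permutation of log2 RPM (reads scaled to the recovered total). Intervals and floors cover counting error only.

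Single genes were tested with limma 3.58.1 in R 4.3.3 (lmFit, eBayes with trend) on log2(FPKM + 1), 12166 genes with a mean of at least 1 FPKM, two-sided, Benjamini-Hochberg, threshold 0.05. The fit was also run on simulated data, with an outcome that is not reported here. Alternatives were other pseudocounts, filters and scalings, voom on recovered reads, a replicate block and leaving out each library. The members and gene lists were chosen with earlier results of these data known. Named members were all constant genes, the 10 V segments and 3 each of J segments, D segments and pseudogenes with most reads, and the 5 tested members with the smallest p in each direction. From the other lists, up to 4 genes with the smallest p and defining genes at 0 were eligible, some of which are not reported here. Other genes named (Ighj2, Igkj1, Igkj2, Igkj3, Igkj5, Igkv8-28, Iglv2, Iglv3, Ms4a1, Cd79b, Ebf1, Syk, Jchain, Prdm1, Cst3, Adgre1, Csf1r, Ccr9 and the near copies) were chosen after their values were seen. Whether equal replicate numbers stand for 1 animal or batch is not stated in the labels.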

Additional observations from a re-analysis of the deposited data

How the results depend on the processing

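The count of immunoglobulin genes past an adjusted p of 0.05 in limma was 0 in each direction and stayed 0 with the other pseudocounts, filters and scalings, voom and no trend. With the replicate block, 13 were higher and 8 lower (552 of all genes), while same-numbered libraries had a correlation of deviations of -0.02 over 2 pairs. The labels do not say whether the numbers pair the libraries, and 2 pairs do not settle it. Leaving out 1 library gave 1 to 14 higher and 0 to 10 lower, both highest without control replicate 1. The log2 differences of summed RPM changed sign in these cases. With the most read member left out they became 0.17 for all segments, 0.40 for Igh, 0.23 for Igh constant genes, 0.39 for Igl V, -0.77 for Igl constant genes and 0.12 for all constant genes. Scaling by the implied library size gave -0.078 for Igk and -0.13 for Igkc, trimmed means gave -0.10 and -0.14, and summed FPKM gave -0.13 for Igkc. The cause was not tested. Leaving out 1 library moved these differences over -0.34 to 0.088 for all segments, -0.37 to 0.54 for Igk, -0.54 to 0.45 for Igl, -0.70 to 0.78 for Igk constant, -0.34 to 1.09 for Igl constant and -0.49 to 0.063 for all constant genes. Of named genes, Ighg1 ran from -0.0037 to 0.22, Iglc3 from -0.13 to 0.54, Ighj3 from -0.33 to 3.47 and Igkc from -0.97 to 0.72 when 1 control was left out, and Igkc was 0.21 under quantile normalization and 0.043 by voom.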
